A study of Mus musculus with 4 samples.

Results

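Editing sites in ERVL-MaLR repeats were examined in endothelial cells (ECs). A site belonged to the group when the deposited table placed it in a long terminal repeat (LTR) of the ERVL-MaLR family and when it passed in at least 1 of the 4 libraries, that is, 5 or more reads covered it, 3 or more of them were altered, and its editing rate lay between 0.05 and 0.95. The editing rate is the fraction of the reads over a site that carry the altered base. These criteria selected 772 of the 24200 passing sites of the whole table, or 3.19%, and 772 of the 26872 ERVL-MaLR sites listed at any rate. The 772 sites lay in 489 repeat elements and were assigned to 339 genes. Since the editing rates themselves chose the sites, rates and numbers of passing sites are given as a description. The main tests were made on sites chosen in the other mouse, but some of the alternatives given at the end were not.

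The ECs came from the lungs of 2 male mice, 2 weeks old, of strain C57/BL6 and from independent litters, both labelled as carrying an inducible EC-specific ADAR1 knockout. The cells of each mouse were selected with CD31 and CD102 antibodies, cultured, and divided into untreated control cells (CON) and cells given 4-OH-Tamoxifen (TM) to delete part of the ADAR1 gene, so that CON cells also carried the inducible knockout alleles. There were 2 libraries per group, named EC1 or EC2 for the mouse and CON or TM for the treatment. The promoter that drives the inducible Cre is not given in the sources used here. Cells without the inducible alleles and given TM were not analysed here, so that an effect of TM itself cannot be told apart from the deletion.

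ADAR1 is an enzyme that deaminates adenosine to inosine in double-stranded RNA, and inosine is read as G after reverse transcription. ERVL-MaLR elements are remnants of LTR retrotransposons without their own coding capacity. In the mouse the family includes the MT repeats (MTA to MTE) and the ORR1 repeats, together with the older MLT1 repeats, and names ending in -int are internal parts between the LTRs. When 2 related elements lie in opposite directions in one transcript, they can fold back on each other into a double strand.

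The sequences below show where sites clustered in such a pair. In the 3′ UTR of 2900026A02Rik, a protein-coding gene on the minus strand of chromosome 5 (GRCm38, the build also called mm10), an MTA_Mm element on the plus strand (113087915 to 113088054, 16 sites) adjoined an MTB element on the minus strand (113087742 to 113087930, 14 sites), and 15 bases were listed in both. With the shared bases kept in MTB only, an MTA_Mm arm and an MTB arm of the GENCODE vM21 transcript aligned as reverse complements over 129 positions, of which 103 (79.8%) could form A-T or G-C pairs. The 30-base window of MTB with the most sites and the MTA_Mm stretch that faced it are shown 5′ to 3′ on the gene strand, and capitals mark the edited adenosines.
2900026A02Rik MTB, chr5:113087812-113087841: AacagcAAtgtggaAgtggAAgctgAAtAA
2900026A02Rik MTA_Mm, chr5:113087961-113087990: ttAttcAgcttAcacctccaAActgctgtt

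The MTB window held 10 edited adenosines and the facing stretch held 5, and 26 of the 30 facing positions could pair. Of the 30 sites of the 2 elements, 29 had a facing base in the alignment. The base was T (U in the RNA) at 21 of these 29, or 72.4%, C at 6 and G at 2, whereas T faced 58 of all 69 adenosines of the aligned arms, or 84.1%. No test was made of this difference, since neighbouring sites share reads.

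For an intronic pair, a retained-intron transcript of Mrpl42, which encodes a subunit of the mitochondrial ribosome, covered an ORR1C1 element with 1 site and an ORR1D1 element with 3 sites on the opposite strand. This pair was chosen after its values were seen, because a transcript sequence covered it outside a UTR. Stretches of 200 bases on the gene strand (minus, GRCm38) are shown with the adenosines of these sites in capitals.
Mrpl42 ORR1C1, chr10:95492658-95492857: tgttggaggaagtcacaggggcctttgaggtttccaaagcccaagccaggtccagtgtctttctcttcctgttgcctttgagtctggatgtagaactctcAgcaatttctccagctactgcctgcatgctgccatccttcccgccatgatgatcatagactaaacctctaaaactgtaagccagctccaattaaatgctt
Mrpl42 ORR1D1, chr10:95490921-95491120: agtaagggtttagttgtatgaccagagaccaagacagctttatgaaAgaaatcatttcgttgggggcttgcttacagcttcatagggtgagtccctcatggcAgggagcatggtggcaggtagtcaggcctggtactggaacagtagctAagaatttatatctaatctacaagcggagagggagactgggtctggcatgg

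The Mrpl42 arms could pair at 223 of 342 aligned positions (65.2%), a lower share than in 2900026A02Rik. The sites stood apart from each other, and whether they are edited or genomic variants was not tested. The ORR1D1 site at chr10:95490971 had a rate of 0.556 over 9 reads (CON) and 0.333 over 9 reads (TM) for EC1, with 0.25 over 4 reads (CON) and 0.5 over 6 reads (TM) for EC2. At this depth no direction between CON and TM could be read from it.

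GENCODE vM21 transcripts covered 74 of the 772 sites, in 36 elements, on the strand of the assigned gene. The transcript base was A at all 74 of these sites, which the choice of A-to-G changes on the gene strand had fixed in advance. The base before the adenosine of a site was G at 21.6% of the 74 sites. It was G before 22.2% of all adenosines in the covered parts of the same elements. The base after was G at 31.1% of sites and 29.0% of all adenosines. The base before was C at 21.6% of sites and 32.4% of all adenosines, and A at 36.5% and 28.1%. Without the 30 sites of 2900026A02Rik, A stood before 27.3% of the remaining 44 sites and C before 22.7%.

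The 4 libraries were first checked against their labels. The count over the whole Adar gene, only part of which is deleted, was 9 and 47 in CON and TM of EC1 and 16 and 71 in CON and TM of EC2, higher in TM in both mice, which does not measure the deletion. Exonic sites of the EC genes Pecam1 and Cdh5 had median depths of 1932 to 10323 reads in the 4 libraries, and no exonic site was listed for the leukocyte gene Ptprc or the epithelial gene Epcam. The count files summed to 131796753 to 207323870 per library over all lines, with EC2 TM the largest. Only 0.823% to 0.858% of these counts were on genes, so that host gene levels were not taken from them and the read depth at the sites is given instead.

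The number of passing ERVL-MaLR sites did not move the same way in both mice. There were 428 in CON and 307 in TM for EC1, whereas EC2 had 318 in CON and 372 in TM. The TM number was thus 0.717 times the CON number in EC1 and 1.17 times in EC2. Per 1000000 counts of the library, the numbers were 3.22 and 2.33 in EC1 and 2.22 and 1.79 in EC2, so that the TM to CON ratio was 0.724 in EC1 and 0.810 in EC2. The direction in EC2 therefore depended on whether the larger total of EC2 TM was taken into account.

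ERVL-MaLR sites made up a similar share of all passing sites in each library. This share was 3.57% (95% Wilson interval 3.26% to 3.92%) for CON and 3.23% (2.90% to 3.61%) for TM of EC1. It was 2.99% (2.68% to 3.33%) for CON and 3.04% (2.75% to 3.36%) for TM of EC2, so that the intervals of CON and TM overlapped in each mouse. All intervals here cover counting error only. Most sites rested on few reads, with a median depth of 13 to 18 reads among the passing sites of a library, and 83 to 142 of them per library had exactly 3 altered reads. Just outside the threshold, 215 to 359 sites per library had exactly 2 altered reads and met the other criteria, and 499 to 799 sites with at least 3 altered reads were left out for a rate above 0.95.

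Sites differed in the number of libraries in which they passed. Of the 772 sites, 407 (52.7%) passed in 1 library, 185 in 2, 72 in 3 and 108 (14%) in all 4 libraries. The same split was not counted over all passing sites, so that no trait of ERVL-MaLR sites is read from it. The 108 sites that passed everywhere lay in 60 elements, and their median rate was 0.474 (CON) and 0.379 (TM) for EC1, with 0.5 (CON) and 0.436 (TM) for EC2. Their rates in EC1 CON ran from 0.0614 to 0.805. Of all 772 sites, 238 met the depth criterion in all 4 libraries. Sites between 0.35 and 0.65 in every library, the range that a heterozygous genomic variant would give, numbered 20. Only sites with a rate in every library could be counted, so that the 20 are not a share of all 772. No such count is given over all passing sites. Whether the 20 sites are such variants was not tested, as genomic DNA was not analysed here.

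By repeat name, MTC held the most sites, 83 in 38 elements. It was followed by ORR1B1 with 74, MTD with 63, MTB with 57, MTA_Mm with 53, ORR1D1 with 49, ORR1A2 with 42 and ORR1B2 with 31. Relative to the ERVL-MaLR sites listed under each name, 6.48% passed in MTB, 5.22% in ORR1B1 and 3.82% in MTC, against 2.25% in MTD and 2.11% in MTA_Mm.

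**Figure D1:**
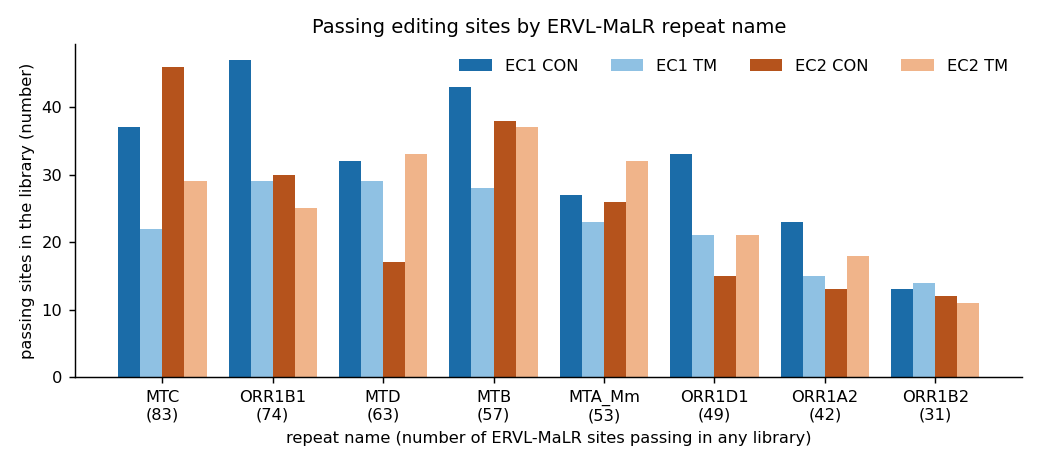
Number of passing ERVL-MaLR sites (y axis) in each of the 4 libraries (bar colours) for the 8 repeat names with most sites (x axis, total in any library in parentheses). MTC, ORR1B1 and MTB had fewer passing sites in TM than in CON in both mice, whereas MTD and MTA_Mm had fewer in EC1 TM and more in EC2 TM.

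MTC had 37 (CON) and 22 (TM) passing sites in EC1 and 46 and 29 in EC2. ORR1B1 had 47 and 29 in EC1 and 30 and 25 in EC2, and MTB had 43 and 28, and 38 and 37. MTD had 32 and 29 passing sites in EC1 but 17 in EC2 CON and 33 in EC2 TM. These numbers are not scaled for the size of the libraries.

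Most sites were intronic. By gene region, 560 sites lay in introns, 93 in 3′ UTRs, 52 in 5′ distal and 48 in 3′ distal regions, 14 in downstream regions, 4 in exons and 1 in a promoter. The 3′ UTR sites were concentrated in 15 elements, and 9% of the ERVL-MaLR sites listed in 3′ UTRs passed, compared with 3.36% in introns. The number of passing 3′ UTR sites was 70 and 44 in CON and TM of EC1 and 74 and 55 in CON and TM of EC2, lower in TM in both mice. The intronic number was 300 (CON) and 221 (TM) for EC1, with 203 (CON) and 261 (TM) for EC2, which went in opposite directions. Of all sites, 466 lay in elements on the strand opposite to the gene and 306 in elements on the gene strand.

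Sites were clustered in a few elements. Of the 489 elements, 364 held 1 site, 80 held 2, 29 held 3 or 4 and 16 held 5 or more, with a maximum of 23. The 10 elements with most sites held 122 sites, or 15.8% of the total. Neighbouring sites of an element lay a median of 12 bases apart, and 131 of the 283 neighbouring pairs were within 10 bases. Elements with 5 or more passing sites numbered 12 (CON) and 5 (TM) in EC1, and 9 and 7 in EC2. They held 25.7% (CON) and 14.7% (TM) of the passing sites in EC1 and 29.6% and 16.1% in EC2, a lower share in TM than in CON in both mice.

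The elements with most sites lay in facing pairs. Of the 10 elements, 9 had a listed ERVL-MaLR element on the opposite strand within 2000 bases, and 8 of them formed 4 pairs with each other, in Fbxl17, 2900026A02Rik, Susd4 and Sh2d4b, with 109 sites in all. Over all listed elements, an opposite-strand neighbour within 2000 bases was found for 75.0% of the 16 elements with 5 or more sites, 51.7% of the 29 with 3 or 4, 45.0% of the 80 with 2 and 26.1% of the 364 with 1 site. It was found for 8.64% of the 16302 listed elements without a passing site. A neighbour on the same strand was found for 12.5%, 24.1%, 26.2%, 26.9% and 20.1% of these classes, with no such order. Only elements with at least 1 listed site could be counted as neighbours, and the depth of the transcripts was not taken into account.

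**Figure D2:**
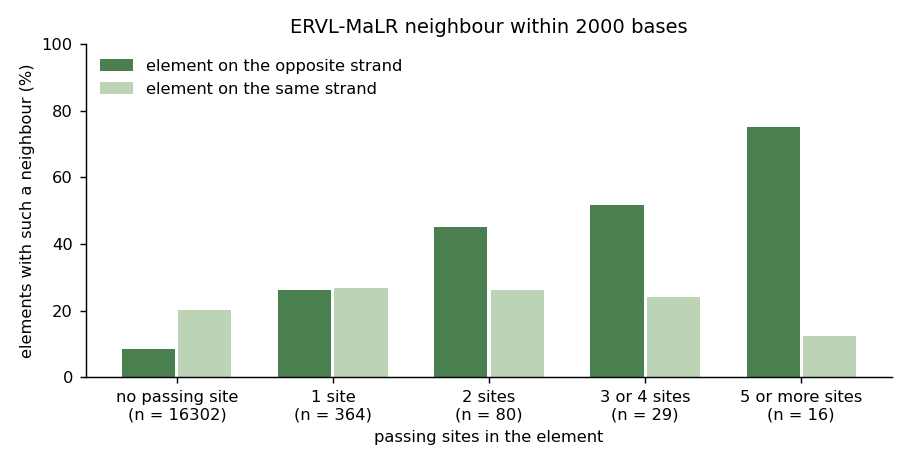
Share of ERVL-MaLR elements in % (y axis) with another listed ERVL-MaLR element within 2000 bases on the opposite strand (dark bars) or on the same strand (light bars), by the number of passing sites in the element (x axis, n elements). The dark bars go from 8.64% for elements without a passing site to 75.0% for elements with 5 or more sites, whereas the light bars lie between 12.5% and 26.9%.

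The largest cluster was in the 3′ UTR of Fbxl17, which encodes an F-box protein, the part of a ubiquitin ligase that binds its substrate. The gene lies on the minus strand of chromosome 17, and an MTB element on the plus strand (63052463 to 63052847) held 23 sites, while an MTC element on the minus strand (63054033 to 63054427), 1186 bases away, held 18 sites. Passing MTB sites numbered 19 and 13 in CON and TM of EC1 and 18 and 17 in CON and TM of EC2. Passing MTC sites numbered 10 (CON) and 0 (TM) for EC1, with 16 (CON) and 2 (TM) for EC2. Over the 17 MTB sites with 5 or more reads in all 4 libraries, the mean rate was 0.400 and 0.230 in CON and TM of EC1 and 0.381 and 0.245 in CON and TM of EC2. Over the 6 such MTC sites it was 0.166, 0.0693, 0.260 and 0.0874. Both TM libraries thus had lower mean rates than both CON libraries in both elements. Median depths at these sites were 22 to 30 reads in MTB and 14.5 to 24 reads in MTC, and MTC was read less deeply in TM (14.5 and 16) than in CON (21.5 and 24).

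The 2900026A02Rik pair was the most deeply read, with median depths of 257 to 359 reads in CON and 140 to 229 reads in TM. Passing MTA_Mm sites numbered 13 (CON) and 11 (TM) for EC1, with 16 (CON) and 12 (TM) for EC2, and passing MTB sites 13, 8, 13 and 9. Over the 14 MTA_Mm sites read in all 4 libraries, the mean rate was 0.145 and 0.0828 in CON and TM of EC1 and 0.213 and 0.1 in CON and TM of EC2. Over the 13 MTB sites it was 0.193, 0.0717, 0.208 and 0.109. The rates in TM were again below those in CON in both mice, and depth was lower in TM as well. Its part in the difference was not tested.

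**Figure D3:**
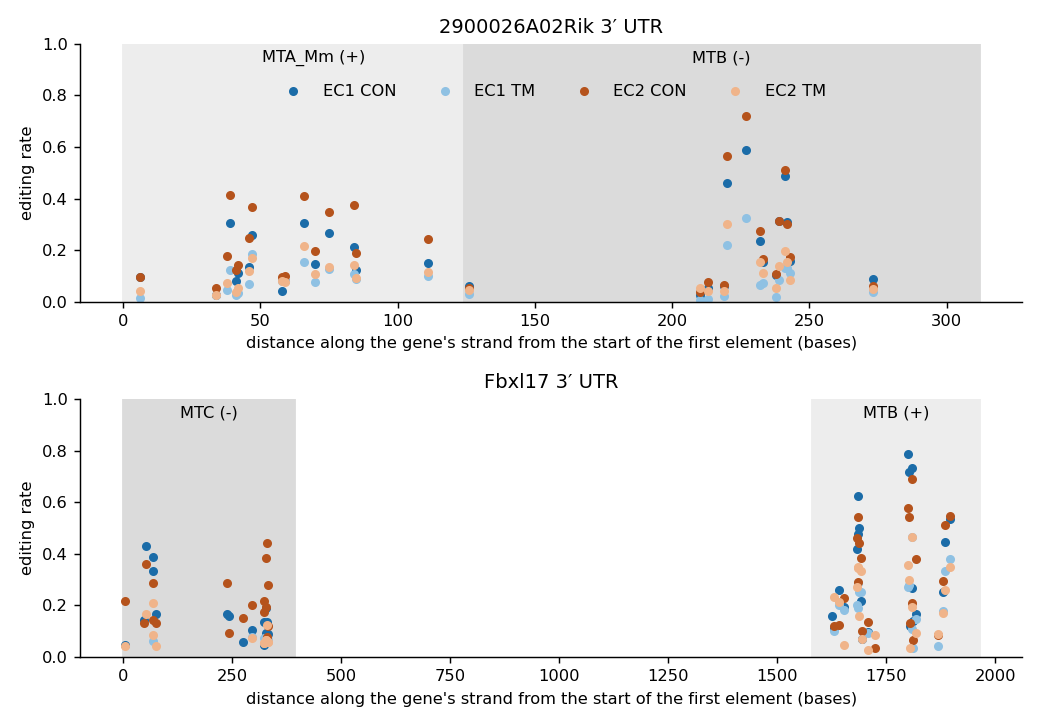
Editing rate (y axis) at each ERVL-MaLR site with at least 5 reads along the facing elements of 2900026A02Rik (upper panel) and Fbxl17 (lower panel), with the distance in bases along the gene strand on the x axis, shading for the elements with their strands, and colours for the 4 libraries. The highest rates stood within short stretches of each element, and CON points lay above TM points at most sites, as in the MTB window of 2900026A02Rik, where 2 sites reached 0.722 and 0.564 in EC2 CON.

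Single sites of the MTB window printed above were read deeply enough to be compared one by one. At chr5:113087813 the rate in EC1 was 0.488 with CON (117 of 240 reads, 95% Wilson interval 0.425 to 0.550) and 0.129 with TM (21 of 163, 0.0858 to 0.189). In EC2 it was 0.512 with CON (169 of 330, 0.458 to 0.566) and 0.198 with TM (39 of 197, 0.148 to 0.259). At chr5:113087834 it was 0.461, 0.221, 0.564 and 0.302 in the same order. CON and TM intervals did not overlap in either mouse at the first of these sites. At chr5:113087827 the rate was 0.590 (CON) and 0.323 (TM) in EC1 and 0.722 in CON of EC2, and no value was listed for EC2 TM, although the sites at 113087822 and 113087834 had 195 and 232 reads there. A site without a listed value was therefore not always a site without reads.

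Intronic pairs showed a less uniform picture. In Susd4, which encodes a complement regulator, an ORR1D2 element on chromosome 1 (182878558 to 182878891) held 11 sites and an ORR1C1 element 818 bases away held 10. Mean rates over 10 ORR1D2 sites were 0.403 (CON) and 0.348 (TM) for EC1, with 0.467 (CON) and 0.35 (TM) for EC2. In the ORR1C1 element only 2 sites could be compared in all libraries, and the mean was higher in TM in EC1 (0.635 and 0.810) but lower in TM in EC2 (0.620 and 0.582).

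Sh2d4b, which encodes an SH2 domain protein, held 9 sites in an ORR1B1 element on the plus strand and 8 in an ORR1B1 element on the minus strand, 760 bases apart. Over 5 sites of the first, the mean rate was 0.433 and 0.305 in CON and TM of EC1 and 0.475 and 0.305 in CON and TM of EC2. Over 5 sites of the second it was 0.516, 0.631, 0.434 and 0.415. The facing arms of this pair thus differed, with lower TM means in both mice in the first arm only, at median depths of 9 to 37 reads.

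Of the other 2 elements, an ORR1B1-int element in the 3′ UTR of Slc35e1, which encodes a member of a transporter family, held 6 sites, and its nearest listed opposite-strand ERVL-MaLR element was 36744 bases away. The mean rate over 5 sites was 0.249 (CON) and 0.146 (TM) for EC1, with 0.305 (CON) and 0.0954 (TM) for EC2. An MTC element in an intron of Polr1d, which encodes a subunit shared by RNA polymerases I and III, held 7 sites. Of these, 0 (CON) and 4 (TM) passed in EC1, and 4 (CON) and 5 (TM) in EC2. In EC1, 5 (CON) and 1 (TM) were not listed, and in EC2, 2 (CON) and 0 (TM). The 1 site that could be compared had 5 (CON) and 15 (TM) reads in EC1 and 6 and 12 in EC2.

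**Figure D4:**
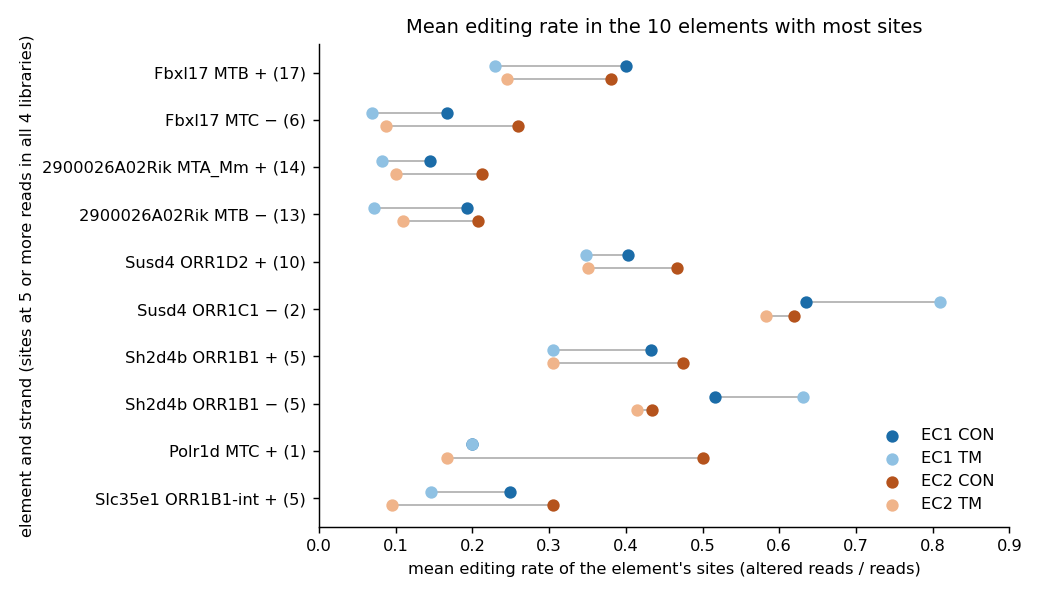
Mean editing rate (x axis) of the 10 ERVL-MaLR elements with most sites (y axis, gene, repeat name, strand and the number of sites with 5 or more reads in all 4 libraries), with 1 point per library and a line joining the CON and TM points of a mouse. TM points lie left of CON points in both mice in 7 elements, and the Susd4 ORR1C1 and second Sh2d4b elements have the EC1 TM point to the right, at 0.810 and 0.631, while both EC1 points of Polr1d, with 1 site, are at 0.200.

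To ask whether rates differed where the passing rule had not been applied to the measured mouse, each mouse was measured at the sites selected on the other mouse. A site also had to be listed in both libraries of the measured mouse. Listing may itself depend on altered reads, so this choice was not wholly free of the measured rates. In EC1, 259 sites passed in EC2 and had 5 or more reads in both EC1 libraries, and their mean rate was 0.364 in CON and 0.333 in TM. In EC2, 240 sites chosen in EC1 had mean rates of 0.401 in CON and 0.337 in TM. The rate was higher in CON at 158 sites and in TM at 86 sites in EC1, and at 153 and 70 sites in EC2. The mean difference, CON minus TM, was 0.0306 in EC1 and 0.0645 in EC2, or 0.0476 ± 0.0239 (SD, n = 2 mice). With 2 mice, the exact sign permutation test (two-sided) gave p = 0.5, the smallest value it can give, so that the design cannot pass a threshold of 0.05.

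The size of this difference rested in part on the 2 largest clusters. Without the sites of Fbxl17 and 2900026A02Rik, a choice made after seeing the data, the difference was 0.00763 in EC1 and 0.0480 in EC2. When each element counted alike, it was 0.00505 in EC1 and 0.0358 in EC2. When sites listed in only 1 library of the mouse were also kept, with the other taken as 0, it was 0.0316 in EC1 and 0.0393 in EC2. Over all sites of the table chosen in the same way, the difference was 0.0204 in EC1 and 0.0383 in EC2, and over sites in B1 elements, which the table lists as the Alu family of SINEs, it was 0.0512 and 0.0811. Sites in ERVK elements, another LTR family, had differences of 0.0303 and 0.0733. Other LTR families had smaller or negative differences, -0.0249 and -0.00856 in ERV1 elements and 0.0109 and 0.0268 in ERVL elements. No test of the differences between families was made.

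The difference was unequal across elements. Where the other mouse had 1 passing site in an element, the mean difference was -0.00343 over 99 sites in EC1 and 0.0261 over 84 sites in EC2. Where it had 5 or more, the mean difference was 0.0822 over 86 sites in EC1 and 0.120 over 89 sites in EC2, and CON was higher at 80.2% and 86.5% of these sites, which lay in 12 elements in each mouse. In 3′ UTRs, CON minus TM was 0.108 over 63 sites in EC1 and 0.117 over 64 sites in EC2, whereas in introns it was 0.00455 over 171 sites and 0.0536 over 150 sites. These groups overlap, since the Fbxl17 and 2900026A02Rik sites were in 3′ UTRs. Sites of 1 element share reads, and no test was made between the classes.

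**Figure D5:**
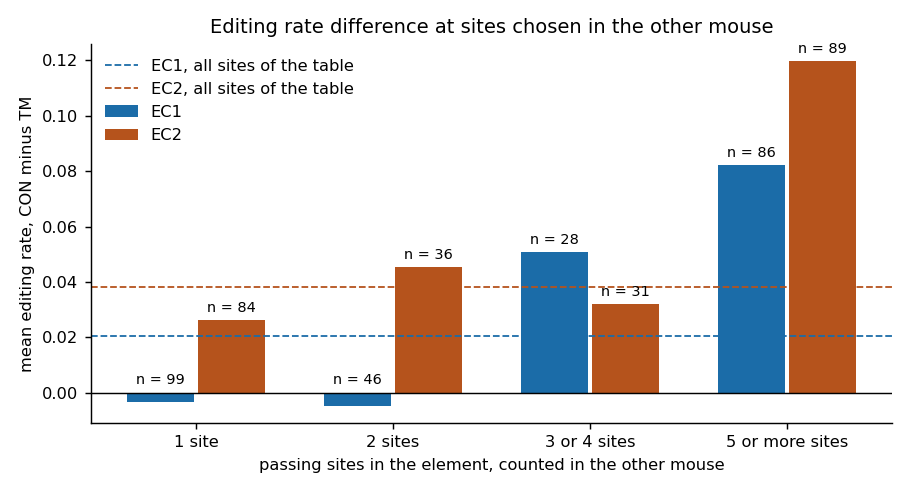
Mean editing rate in CON minus TM (y axis) at ERVL-MaLR sites chosen in the other mouse, by the number of passing sites of the element in the other mouse (x axis), for EC1 (blue) and EC2 (brown) with n sites, and with the same difference over all sites of the table as dashed lines (0.0204 and 0.0383). Elements with 5 or more sites had differences of 0.0822 and 0.120, above both dashed lines, whereas EC1 lay at -0.00343 for elements with 1 site.

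Single sites were then tested on their reads by Fisher's exact test (two-sided) within each mouse. These were again sites chosen in the other mouse and listed in both libraries of the mouse tested. Benjamini-Hochberg adjustment was over all 7867 sites tested in EC1 and 7753 in EC2. Of the 772 ERVL-MaLR sites, 318 could be tested in 1 or both mice and 454 in neither. In EC1, 9 of 259 sites (3.47%) had a higher rate in CON at an adjusted p of at most 0.05, where 1.07% of all tested sites did. In EC2, 15 of 240 sites (6.25%) did, where 3.04% of all tested sites did. No ERVL-MaLR site was called higher in TM in either mouse, where 0.0763% of all tested sites were in EC1 and 0.142% in EC2, and without adjustment 3 sites in EC1 and 1 in EC2 had p of at most 0.05 in that direction. These tests compare the reads of 2 libraries of a mouse, with reads as the unit.

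The called sites were 19 in all, 5 of them in both mice, and 16 of the 19 lay in the 2900026A02Rik pair. Without that gene 3 called sites were left, 1 in Fbxl17 (called in EC1) and 2 in Slc35e1 (called in EC2). In each mouse, the excess over the share of all tested sites thus rested on 2900026A02Rik. The smallest adjusted p by Fisher's exact test was that of chr5:113087813 in both mice, 3.44e-11 in EC1 and 1.7e-10 in EC2. In MTA_Mm, the site at chr5:113087970 went from 0.376 (160 of 425 reads) to 0.143 (36 of 252) in EC2 at an adjusted exact p of 8.94e-09. It was 0.212 and 0.106 in EC1, where it was not called.

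Both sites called in Slc35e1 were called in EC2. At chr8:72478916 the rate was 0.395 (15 of 38 reads) in CON and 0.0577 (3 of 52) in TM, with an adjusted p of 0.00599 by Fisher's exact test, and at chr8:72478887 it was 0.609 (28 of 46) and 0.274 (17 of 62), with 0.0282. In EC1 these sites had 0.324 and 0.176 at the first and 0.472 and 0.211 at the second, over 17 to 36 reads. The Fbxl17 site at chr17:63052628 was called in EC1, at 0.788 (26 of 33 reads) in CON and 0.269 (7 of 26) in TM, with an adjusted exact p of 0.011. In EC2 it was 0.577 (15 of 26) and 0.355 (11 of 31). Each of these sites was lower in TM in both mice, and intervals overlapped in the mouse without a call.

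The definition of the study calls a site by a rate difference of at least 0.05 within a mouse, with 5 or more reads, 3 or more altered reads and a rate of at most 0.95 in the library with the higher rate. A site that was not listed in the other library was taken as 0 there, a choice made here. Since the selection of the sites used the same rates, the following counts are a description. In EC1, 252 of the 772 ERVL-MaLR sites (32.6%) were CON > TM and 131 (17.0%) were CON < TM, where 28.7% and 18.8% of all passing sites were. In EC2, 205 (26.6%) and 182 (23.6%) were, where 25.6% and 22.9% of all passing sites were. In both mice, 78 sites (10.1%) were CON > TM and 34 (4.40%) were CON < TM, where 7.35% and 3.92% of all passing sites were.

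The 78 sites that were CON > TM in both mice lay in 33 elements of 24 genes, and 50 of them were in the 10 elements with most sites. The 34 sites that were CON < TM in both mice were scattered over 31 elements of 29 genes, and 2 of them were in those 10 elements. Outside the 10 elements, 28 sites were CON > TM and 32 were CON < TM in both mice, with unlisted libraries taken as 0. By this count CON > TM was not the more frequent direction there. Over all elements, 61 sites were CON > TM and 14 were CON < TM when both libraries of a mouse had to be listed. The split outside the 10 elements was not counted under that rule. The 10 elements were themselves chosen by passing sites in these data. Read depth differed between the directions. Sites with CON > TM had median depths of 32.5 (CON) and 20.5 (TM) reads in EC1 and 23 and 24.5 in EC2, whereas sites with CON < TM had 9 and 15 in EC1 and 3.5 and 14 in EC2. At 16 of the 34 sites with CON < TM, the CON library was not listed in at least 1 mouse, as was the TM library at 16 of the 78 sites with CON > TM.

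Of the genes with most ERVL-MaLR sites outside these pairs, Esyt2, which encodes a protein tethering the endoplasmic reticulum to the plasma membrane, had 17 sites spread over 11 elements. Their numbers passing were 17 and 15 in CON and TM of EC1 and 14 and 16 in CON and TM of EC2. The mean rates of the passing sites were 0.557, 0.529, 0.638 and 0.571. By the rate difference in both mice, 5 Esyt2 sites were CON > TM and 2 were CON < TM. Whether the Esyt2 sites are edited or genomic variants was not tested. Spag9, which encodes a scaffold of JNK signalling, had 11 sites in 2 elements on opposite strands, 3249 bases apart, and was picked after its values were seen. In its ORR1B1 element 1 site (CON) and 0 sites (TM) passed in EC1 and 2 and 6 in EC2, and in its ORR1B2 element 5, 3, 4 and 0 did. The ORR1B1 sites had a median depth of 10 (CON) and 24 (TM) reads in EC2 at the 4 sites read in all libraries, and their mean rate there was 0.243 and 0.206, lower in TM although more sites passed. The ORR1B2 sites had a median depth of 10 reads in both EC2 libraries and mean rates of 0.327 and 0.142. Over the passing sites of Spag9, the mean rate was higher in TM in EC1 (0.170 in CON and 0.262 in TM) and lower in TM in EC2 (0.343 and 0.187). No Spag9 site had a rate difference of at least 0.05 in the same direction in both mice.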

How the data were processed

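Libraries were made from total RNA with the KAPA RNA HyperPrep Kit with RiboErase. Per the labels and the methods of the study, reads were trimmed with Trimmomatic 0.38, aligned to mm10 (GRCm38) with STAR 2.6.1a and counted per gene with HTSeq 0.11.2. The authors called variants with BCFtools mpileup and retained only A-to-G (genes on the plus strand) or T-to-C (genes on the minus strand), then annotated gene regions and RepeatMasker repeats. For each of 1205261 sites they deposited read counts of both bases, and the editing rate as a fraction. The rate recomputed from the counts differed from the deposited fraction by at most 5e-07. Reads at sites without a listed value are unknown, and depth limits each rate. Column names of the site table carry the mouse and a suffix, and the suffixed columns were read as TM, from the selection rule and a supplementary table whose library-named columns hold the same reads. The deposited gene counts, of which 92.8% to 93.9% were on no feature, were used only for library totals and the check of labels.

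Sites were selected and tested as given above with Python 3.11.15, pandas 2.3.3 and SciPy 1.17.1, and the site tests were tested on simulated counts. The main tests kept the libraries of a mouse together. As the pairing comes from the shared mouse, it was used whatever the data showed, and the deviations of the 2 libraries of a mouse from their group means correlated with r = 0.319 across 238 sites, which are not independent replicates. Alternatives were other depth, altered-read and rate thresholds, other ways of averaging, other adjustment, a test over both mice, summed reads and leaving out each mouse. The items named are the 10 elements, 8 repeat names and 5 genes with most sites and the sites called, and any other is said to be picked after its values were seen. The members and lists were chosen with earlier results of these data known. Arms were aligned by the Smith-Waterman method (match 2, mismatch -1, gap -3), and transcript sequence came from GENCODE vM21. A genome sequence was not used here, so that other elements are named only.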

Additional observations from a re-analysis of the deposited data

How the results depend on the processing

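The mean held-out difference stayed above 0 under every alternative run, from 0.0204 with each element counted alike to 0.0843 at a depth of at least 20 reads, and unpaired (no replicate block) the exact permutation over the 4 libraries gave p = 0.333, its smallest value. The number of sites called by Fisher's exact test in the CON > TM direction was 19. It was 39 without adjustment, 3 without 2900026A02Rik, and 9 to 15 with either mouse left out. A test with a replicate block (Cochran-Mantel-Haenszel over both mice) called 23 of 238 sites (9.66%), where 5.66% of all 7407 sites in that test were called. Of these 23 sites, 19 lay in 2900026A02Rik. One with no replicate block (reads of both mice summed) gave 24. Both used the reads that had selected the sites, so that neither bears on whether the 19 sites called in the main test hold. Shares over all sites were not taken for the 24 or for the 39 without adjustment. In the CON < TM direction it was 0, and 4 without adjustment. Sites CON > TM in both mice numbered 44 at a depth of at least 20 reads and 47 at a rate difference of 0.10, and 205 to 252 when 1 mouse was left out. Sites CON < TM in both mice numbered 21 and 12 at depths of at least 10 and 20 reads, 19 with 5 altered reads, 14 when both libraries had to be listed, and 131 to 182 with 1 mouse left out. All passing sites numbered 292 at a depth of 20, 382 with 5 altered reads, and 505 to 544 with 1 mouse left out. Fewer mice or stricter thresholds change these numbers by construction. Per 1000000 counts the EC2 ratio of TM to CON was 0.810.

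Signs turned only in elements with fewer sites, in thresholds applied to these classes after the data were seen, and the cause was not tested. In EC1 the difference for 1 site became 0.00932 and 0.0352 (depths 10 and 20), 0.00378 (5 altered reads) and 0.00114 (rates 0.10 to 0.90), and for 2 sites 0.0208, 0.0119 and 0.0136. In EC2 it became -0.0105 (1 site) and -0.0250 (2 sites) when unlisted libraries counted as 0, -0.0309 for 2 sites at depth 20, and -0.0444 for 3 or 4 sites at depth 10, where depth 20 gave no value. For elements with 5 or more sites it stayed above 0 in both mice in these alternatives.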

Other observations

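Some sites were assigned to genes of families that respond to interferon. Those given here were picked after their values were seen, so that they stand as single examples. Over all 772 sites, 220 (28.5%) had more reads in TM than in CON in EC1 and 407 (52.7%) did in EC2. In the MLT1B element of AI607873, a member of the Ifi200 family, the site at chr1:173776022 had 22 reads in each CON library and 585 and 981 in the TM libraries of EC1 and EC2, while its rate was 0.545, 0.479, 0.545 and 0.575 in the order CON and TM of EC1, then CON and TM of EC2. The MTEb site of Ifit3b, a relative of the IFIT RNA-binding proteins, at chr19:34610046 was not listed in either CON library and had rates of 0.213 over 94 reads in EC1 TM and 0.296 over 108 reads in EC2 TM. The MTEb site of Ifit3 at chr19:34585749 had 7 reads (CON) and 270 reads (TM) in EC1, with rates of 0.429 and 0.433, and was listed in TM only in EC2, at 0.426 over 401 reads. The ORR1A2 site of Zbp1, which encodes a sensor of Z-form nucleic acids, was listed in neither EC1 library nor EC2 CON and had 30 reads in EC2 TM.

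A further set of sites belonged to 1 mouse. Of the 185 sites that passed in both EC2 libraries, 39 were listed in neither EC1 library, with mean rates of 0.512 (CON) and 0.504 (TM). They were in 25 genes that included Samd4 with 5 sites and Tspan9 with 4. Of the 191 sites that passed in both EC1 libraries, 14 in 10 genes were listed in neither EC2 library, with mean rates of 0.5 (CON) and 0.467 (TM). These shares were not taken over all passing sites, so that no trait of ERVL-MaLR sites is read from them. Both of the following genes were picked after their values were seen. In Samd4, which encodes an RNA-binding repressor of translation, 10 sites in 6 elements passed in EC2 only, 6 in CON and 9 in TM. In Utrn, which encodes the dystrophin relative utrophin, 10 sites in 6 elements passed in EC1 only, 7 in CON and 6 in TM. Whether these are genomic variants was not tested.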
